A study of Homo sapiens with 6 samples.

Results

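Absorptive enterocytes line the gut and carry a brush border, a carpet of actin-filled microvilli studded with peptidases, beneath a coat that includes the carcinoembryonic antigen-related cell adhesion molecules (CEACAMs). The 10 genes described here were chosen by symbol from a list of enterocyte and CEACAM genes, and all 10 were found among the 26255 gene rows of the deposited tables. They encode the adhesion and coat proteins CEACAM1, CEACAM5, CEACAM6, LGALS4 and CDH17, the microvillus actin organiser VIL1, the membrane peptidases DPP4 and ANPEP, and the cytosolic proteins CA2 and FABP1. Messenger RNA was sequenced from HT29, an established human colorectal adenocarcinoma line, after 24 h with YM155, an imidazolium compound known for lowering survivin (BIRC5) expression, or with the solvent DMSO. Each treatment had 3 libraries. The labels give no dose, no genetic change in either group, and do not say whether the triplicates were separate cultures, so the p-values below rest on a spread among libraries that could be purely technical.

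CEACAM1, CEACAM5 and CEACAM6 are immunoglobulin-superfamily glycoproteins that bind each other and themselves between cells. CEACAM5 (carcinoembryonic antigen, the serum marker of colorectal cancer) and CEACAM6 are held in the membrane by a lipid anchor, whereas CEACAM1 spans it and has inhibitory signalling motifs in its tail. In the normal colon these proteins mark the upper crypt and the surface epithelium. HT29 cells are known to stay largely undifferentiated in standard culture and to take on enterocyte or mucous features under metabolic selection.

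Values are FPKM, fragments per kilobase of transcript scaled to the size of the library, as the authors deposited them, so levels can be compared between genes. A gene was tested when at least 3 of the 6 libraries reached 1 FPKM, which held for 12035 genes and 8 of the 10 members. A log2 fold change is the limma estimate on log2(FPKM + 1), YM155 over DMSO, and a gene is said to have risen or fallen when its adjusted p over all tested genes was under 0.05. Of the 8 tested members 5 rose, 2 fell and 1 was not called. YM155 changed most of the transcriptome: 84.7% of tested genes were called (43.6% higher and 41.0% lower), so a share of 7 in 8 members called does not set the list apart. The median log2 fold change was 1.12 over the tested members and 0.02 over all tested genes. Members were chosen with earlier results of these data known, and CDH17 passed the filter only through the YM155 group. The 2 medians are therefore a description and not a test of the list. The content of the list lies in which members moved which way.

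The promoters of the 3 CEACAM members, which rose together, and of DPP4, which fell, are shown for comparison. They were taken from RefSeq (build GRCh38.p14), which gave a promoter for 7 of the 10 members, and run 5′ to 3′ from 250 bases before to 50 bases after the start site. Capitals mark matches on either strand to any of 8 motifs. These are the motif of the general start-site box (letters TATAAA), the GC box (letters GGGCGG), the E-box (letters CACGTG), a further motif (letters GTTAAT), and those known for CDX factors (letters TTTATG), for AP-1 (letters TGANTCA), for C/EBP-ATF dimers (letters TGATGNAA) and for the antioxidant response element (letters TGACNNNGC). The motifs for the start-site box and for CDX factors can overlap, but no matches overlap in the promoters shown.
CEACAM5, plus strand, chr19:41708376-41708675: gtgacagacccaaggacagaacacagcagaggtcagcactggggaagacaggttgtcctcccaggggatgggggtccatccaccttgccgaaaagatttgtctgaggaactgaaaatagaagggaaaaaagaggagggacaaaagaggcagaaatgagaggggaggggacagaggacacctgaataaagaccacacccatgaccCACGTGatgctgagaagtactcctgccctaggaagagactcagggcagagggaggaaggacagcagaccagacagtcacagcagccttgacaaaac
CEACAM6, plus strand, chr19:41755280-41755579: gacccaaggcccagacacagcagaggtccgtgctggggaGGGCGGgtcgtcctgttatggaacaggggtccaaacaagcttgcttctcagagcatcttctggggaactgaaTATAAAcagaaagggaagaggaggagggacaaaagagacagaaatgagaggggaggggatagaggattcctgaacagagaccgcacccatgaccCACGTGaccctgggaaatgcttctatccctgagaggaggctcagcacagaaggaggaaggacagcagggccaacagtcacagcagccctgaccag
CEACAM1, minus strand, chr19:42528432-42528731: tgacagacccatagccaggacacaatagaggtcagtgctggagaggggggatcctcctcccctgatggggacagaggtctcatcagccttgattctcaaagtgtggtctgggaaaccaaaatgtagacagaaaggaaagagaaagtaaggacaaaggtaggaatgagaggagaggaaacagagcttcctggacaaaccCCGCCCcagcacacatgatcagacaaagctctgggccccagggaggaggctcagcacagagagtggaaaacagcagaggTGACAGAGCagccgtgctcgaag
DPP4, minus strand, chr2:162074166-162074465: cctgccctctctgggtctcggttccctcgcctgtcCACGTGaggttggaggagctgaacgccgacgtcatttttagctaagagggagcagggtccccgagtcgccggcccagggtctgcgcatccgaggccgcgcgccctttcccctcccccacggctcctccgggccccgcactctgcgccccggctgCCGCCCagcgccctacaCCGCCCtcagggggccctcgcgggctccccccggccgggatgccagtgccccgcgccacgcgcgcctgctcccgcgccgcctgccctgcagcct

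The 3 CEACAM promoters resembled each other. CEACAM5 and CEACAM6 matched at 230 of 292 aligned bases (78.8%), CEACAM1 and CEACAM6 at 74.8%, and CEACAM1 and CEACAM5 at 72.0%, while global alignments of the CEACAM promoters with that of DPP4 gave 57.8% to 59.3%. Alignments with the promoters of FABP1, which was not tested, and LGALS4, which was not called, gave 56.5% to 65.2%. An ANPEP promoter gave 53.7% to 55.1%. Whether likeness goes with direction of change was not tested. CEACAM5 and CEACAM6 both hold the E-box CACGTG, which begins at positions -46 and -45 from the start site. CEACAM1 has no E-box in this window and has a GC box at -52 and a TGACNNNGC match at 28. In the DPP4 promoter, which is 75.0% G and C, an E-box begins at -215 and GC boxes at -61 and -44. CACGTG is present in 7.26% of 35116 promoters and GGGCGG in 45.0%. TGACNNNGC is present in 13.3% and TATAAA, found in CEACAM6 at -139, in 11.5%. A match of letters is a description and not a binding site.

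CEACAM5 showed the largest change of the list. Its level was 75.4, 80.3 and 84.7 FPKM in the YM155 libraries, against 12.5, 11.6 and 11.95 FPKM in the DMSO libraries. The groups did not overlap, as for 85.9% of tested genes, and the lowest YM155 library lay far above the highest DMSO library. It rose 6.66-fold, with means of 80.1 ± 4.64 FPKM under YM155 and 12.03 ± 0.476 FPKM under DMSO (SD, n = 3 each; log2 fold change 2.64, SE 0.06, adjusted p = 8.55e-10 by limma). Only 1.41% of tested genes had a higher log2 fold change.

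CEACAM6, the lipid-anchored neighbour of CEACAM5, was at 93.9, 108 and 110.4 FPKM in the YM155 libraries, against 36.3, 36.3 and 35.1 FPKM in the DMSO libraries. It rose 2.90-fold, and the groups did not overlap (log2 fold change 1.51, SE 0.06, adjusted p = 4.14e-08 by limma). CEACAM1, the signalling member, was at 73.3, 85.7 and 82.8 FPKM in the YM155 libraries, against 31.4, 31.3 and 30.6 FPKM in the DMSO libraries. It rose 2.59-fold (log2 fold change 1.34, SE 0.06, adjusted p = 6.28e-08 by limma). YM155 replicate 1 was the lowest YM155 library for all 3 CEACAM genes.

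The summed FPKM of the 3 genes was 265 ± 19.5 under YM155 and 79.0 ± 1.31 under DMSO (SD, n = 3 each), a ratio of 3.35. CEACAM5 made up 30.3 ± 0.937% of that sum under YM155 and 15.2 ± 0.506% under DMSO. The share of CEACAM6 was 39.3 ± 0.544% under YM155 and 45.4 ± 0.342% under DMSO, and that of CEACAM1 was 30.4 ± 0.739% under YM155 and 39.4 ± 0.222% under DMSO. CEACAM5 was thus the scarcest of the 3 transcripts under DMSO and was level with CEACAM1 under YM155, where their ranges overlapped.

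**Figure D1:**
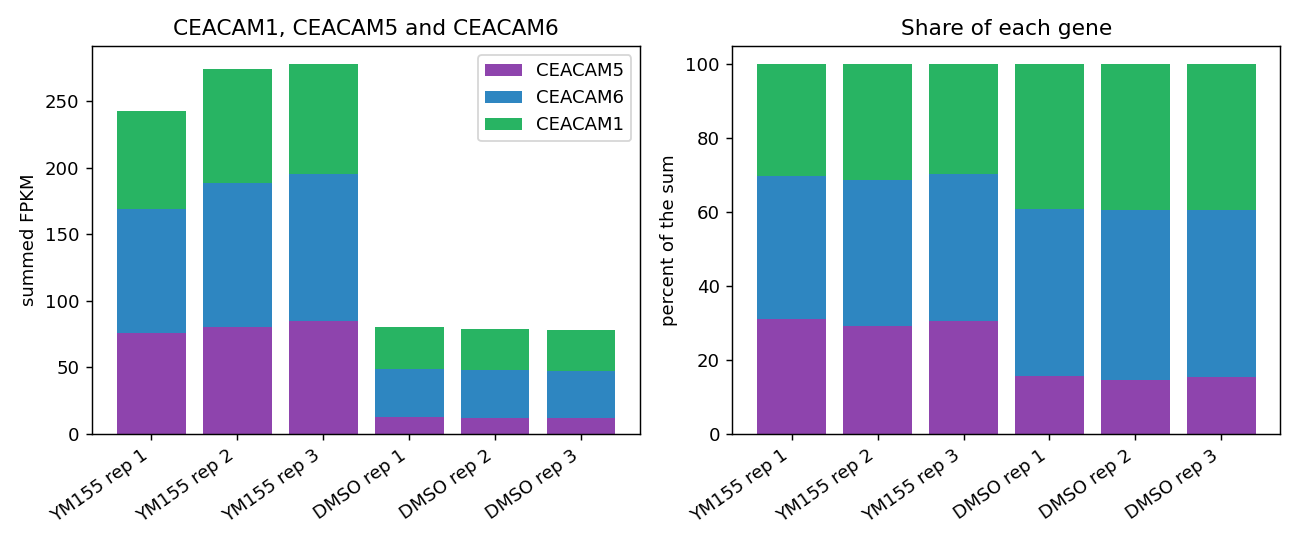
Stacked FPKM (left) and percent of the sum (right) of CEACAM5, CEACAM6 and CEACAM1 in each of the 3 YM155 and 3 DMSO libraries. The summed level lies between 243 and 278 FPKM in the YM155 libraries and between 77.7 and 80.3 FPKM in the DMSO libraries, and the CEACAM5 share between 29.3% and 31.1% under YM155 and between 14.7% and 15.6% under DMSO.

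The 3 genes were also compared by their FPKM ratios within each library, with differences taken on the log2 ratio of FPKM + 1. The ratio of CEACAM5 to CEACAM1 was 0.996 ± 0.0517 under YM155 and 0.387 ± 0.0147 under DMSO (SD, n = 3 each), and the log2 ratio of FPKM + 1 differed by 1.29. The ratio of CEACAM5 to CEACAM6 was 0.770 ± 0.0317 under YM155 and 0.335 ± 0.0135 under DMSO, and the log2 ratio of FPKM + 1 differed by 1.13. CEACAM6 to CEACAM1 moved little, with 1.29 ± 0.0356 under YM155 and 1.15 ± 0.00716 under DMSO and a difference of 0.17 in the log2 ratio of FPKM + 1. The groups did not overlap for any of the 3 ratios. Two-sided exact permutation tests gave p = 0.1 for each pair, also after Benjamini-Hochberg adjustment over the 3 pairs, which is the smallest p that 3 against 3 libraries allow, so none can pass 0.05.

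CEACAM transcripts share sequence, and the sources used here do not say how reads matching several genes were assigned. Of the distinct 50-base windows of the GENCODE release 29 transcripts of CEACAM5, 16.3% also occur in transcripts of another gene, most of them (15.2%) in the gene AC243967.1. The share was 6.99% for CEACAM6 and 3.29% for CEACAM1. Windows common to CEACAM5 and CEACAM6 were 1.15% of those of CEACAM5. Levels of the 3 genes are uncertain to the extent that such reads were split.

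Of 22 listed genes of the CEACAM and pregnancy-specific glycoprotein family, 6 were tested, of which 5 rose and none fell (percent called higher among all tested genes, 43.6). Besides the 3 members these were CEACAM7, a colonocyte-restricted relative, and CEACAM18. CEACAM7 was at 1.86, 2.26 and 2.82 FPKM in the YM155 libraries, against 0.320, 0.565 and 0.600 FPKM in the DMSO libraries (log2 fold change 1.14, SE 0.12, adjusted p = 2.00e-05 by limma). CEACAM18 was at 1.98, 2.42 and 3.54 FPKM in the YM155 libraries, against 0.357, 0.237 and 0.310 FPKM in the DMSO libraries. Both passed the filter only through the YM155 group and so had to differ. CEACAM19 was not called, with 3.68 ± 0.506 FPKM under YM155 and 3.14 ± 0.4998 FPKM under DMSO (adjusted p = 0.162 by limma), and its sign depended on scaling, with log2 values of 0.18 as deposited, -0.09 by upper quartile and -0.07 by common sum. The granulocyte genes CEACAM3 and CEACAM8 stayed under 0.1 FPKM in every library, and the 10 listed PSG genes, placental relatives, were at 0.

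**Figure D2:**
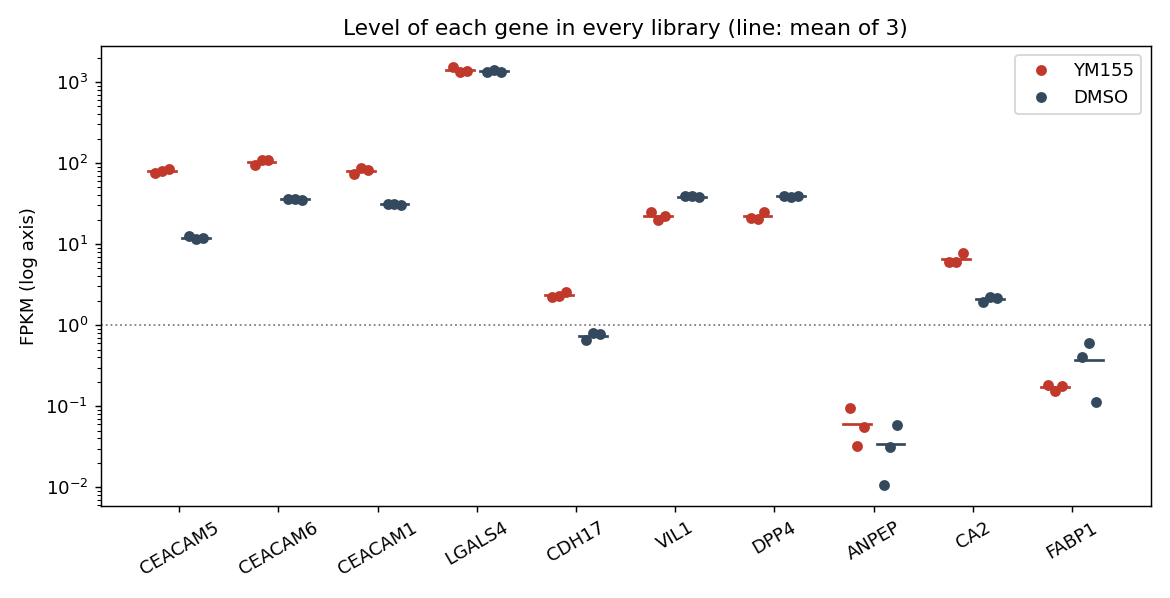
FPKM of each gene on a log axis in every library, with YM155 (red) left of DMSO (dark) and a line at each mean of 3; the dotted line is 1 FPKM. The CEACAM genes, CDH17 and CA2 lie higher under YM155, VIL1 and DPP4 lower, LGALS4 overlaps, with means of 1401 FPKM under YM155 and 1365 FPKM under DMSO, and ANPEP and FABP1 lie under 1 FPKM in all libraries.

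LGALS4 encodes galectin-4, a lectin of enterocytes that binds sulphated glycolipids and helps carry glycoproteins to the apical membrane. It was the most abundant member in both groups, above 99.3% of tested genes under YM155 and 99.4% under DMSO. Its level was 1538, 1313 and 1352 FPKM in the YM155 libraries, against 1347, 1417 and 1332 FPKM in the DMSO libraries. The groups overlapped, and it was not called (log2 fold change 0.03, SE 0.06, adjusted p = 0.623 by limma). That call depends on scaling: with upper-quartile scaling LGALS4 fell by 0.31 on the log2 scale (adjusted p = 0.00173 by limma), or -0.03 relative to the median of all genes, which that scaling itself moved by -0.31. With quantile normalization it fell by 0.37 on the log2 scale, which is -0.29 relative to the median.

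Of 6 tested galectin genes 2 rose, 2 fell and 2 were not called, with a median log2 fold change of -0.06. LGALS3, the galectin of epithelial cytoplasm and surface, rose to 154 ± 2.71 FPKM under YM155, against 81.9 ± 1.43 FPKM under DMSO, and LGALS1 rose to 11.9 ± 0.802 FPKM under YM155, against 7.97 ± 1.26 FPKM under DMSO. LGALS9 fell to 12.2 ± 1.39 FPKM under YM155, against 15.9 ± 0.598 FPKM under DMSO, and the scarce LGALS2 fell to 0.514 ± 0.429 FPKM, against 1.72 ± 0.527 FPKM. LGALS8 was not called, with 5.23 ± 0.444 FPKM under YM155 and 5.88 ± 0.279 FPKM under DMSO. With upper-quartile scaling 1 galectin gene was higher and 4 were lower, and with a common sum 4 were lower.

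CDH17 encodes liver-intestine cadherin, an adhesion protein of the enterocyte's lateral membrane and a known target of CDX factors. Its level was low, at 2.24, 2.32 and 2.55 FPKM in the YM155 libraries, against 0.650, 0.794 and 0.771 FPKM in the DMSO libraries. Every YM155 library was above every DMSO library, and the ratio of means was 3.21 (log2 fold change 0.95, SE 0.08, adjusted p = 3.14e-06 by limma). CDH17 reached 1 FPKM in the YM155 libraries only, so its entry into the test already required a difference. Among cadherins the main epithelial gene CDH1 rose to 119 ± 2.34 FPKM under YM155, against 72.7 ± 2.37 FPKM under DMSO. CDH3, of placental and basal epithelia, fell to 4.56 ± 0.0842 FPKM, against 6.34 ± 0.354 FPKM, and CDH24 fell to 1.65 ± 0.118 FPKM, against 3.09 ± 0.317 FPKM. With CDH17, 2 of the 4 tested cadherin genes rose and 2 fell, and the other 14 listed cadherin genes were under the filter.

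VIL1 encodes villin, which bundles and severs the actin filaments of microvilli. It was at 24.99, 19.8 and 22.1 FPKM in the YM155 libraries, against 39.2, 38.8 and 37.9 FPKM in the DMSO libraries. The groups did not overlap, and VIL1 was 1.73-fold lower under YM155 (log2 fold change -0.77, SE 0.08, adjusted p = 1.08e-05 by limma). All 8 genes of the villin and gelsolin family were tested, of which 4 rose and 4 fell. The 4 that fell were VIL1 and the scarce VILL, AVIL and SCIN, each under 3 FPKM in every library. AVIL and SCIN reached 1 FPKM in the DMSO libraries only, so their entry into the test already required a difference. The ones that rose were CAPG (213 ± 16.1 FPKM under YM155 and 103 ± 5.20 FPKM under DMSO), FLII (2.41-fold), SVIL (2.83-fold) and GSN (1.27-fold). GSN changed sign with upper-quartile scaling (-0.01) and quantile normalization (-0.14), and VILL lost its call with quantile normalization.

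Genes of brush border structure moved in both directions. Of 20 tested genes of that list besides VIL1, 11 rose, 7 fell and 2 were not called (median log2 fold change 0.43). Those that fell, named after their values were seen, were PLS3, USH1C, ANKS4B, BAIAP2L2, COBL, LIMA1 and PDZK1. PDZK1 reached 1 FPKM in the DMSO libraries only, so its entry into the test already required a fall. USH1C, the harmonin scaffold of intermicrovillar links, was at 72.2 ± 5.0997 FPKM under YM155 and 91.7 ± 2.29 FPKM under DMSO. MYO5B, the myosin that carries apical recycling vesicles, rose 8.42-fold, to 73.2 ± 5.22 FPKM under YM155, against 8.69 ± 0.372 FPKM under DMSO. BAIAP2L1, a membrane-bending actin regulator, rose 6.32-fold, and EPS8, which caps and bundles microvillus actin, rose 4.13-fold. The linker EZR rose to 243 ± 13.5 FPKM under YM155, against 83.5 ± 1.70 FPKM under DMSO, and the intermicrovillar adhesion gene CDHR5 rose 6.79-fold; both were chosen after their values were seen. SLC9A3R1, which tethers ezrin to membrane proteins, was not called (62.6 ± 0.666 FPKM under YM155 and 58.3 ± 4.85 FPKM under DMSO, adjusted p = 0.136 by limma), and turned lower with upper-quartile, common sum and quantile scaling.

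DPP4 encodes dipeptidyl peptidase 4 (CD26), a serine exopeptidase of the apical membrane that cleaves after proline. It was at 21.2, 20.6 and 24.8 FPKM in the YM155 libraries, against 39.6, 38.5 and 39.0 FPKM in the DMSO libraries. The groups did not overlap, and DPP4 was 1.76-fold lower under YM155 (log2 fold change -0.79, SE 0.07, adjusted p = 4.34e-06 by limma). Its level and change were close to those of VIL1, and the ranges of the 2 genes overlapped in both groups. The cytosolic relative DPP9 rose 4.33-fold, to 54.5 ± 2.50 FPKM under YM155, against 12.6 ± 0.706 FPKM under DMSO. Of 6 tested homologs and related peptidases of DPP4, 4 rose, 1 fell (PREPL) and 1 was not called (PREP), and the small rises of DPP7 and DPP8 changed sign with upper-quartile and common sum scaling (DPP7 also with quantile normalization), leaving DPP9 and DPP3 (1.45-fold). FAP, the closest relative of DPP4, stayed under 0.1 FPKM in every library.

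ANPEP encodes aminopeptidase N (CD13), a zinc peptidase that in mature enterocytes is among the most abundant proteins of the brush border. In HT29 it was barely detected, with 0.0948, 0.0324 and 0.0558 FPKM in the YM155 libraries, against 0.0106, 0.0318 and 0.0592 FPKM in the DMSO libraries. It was not tested, and the groups overlapped. Low FPKM values lie on steps, and in steps of their own library these values came out as 5, 2 and 3 in the YM155 libraries and 1, 3 and 5 in the DMSO libraries, within 0.1 of a whole number. If 1 step is 1 read, ANPEP rested on 10 reads under YM155 and 9 under DMSO, and a difference was not detectable at this depth.

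Other digestive enzymes were also scarce, though not all were as low as ANPEP. Of 21 listed membrane peptidases and disaccharidases, DPP4 was the sole gene to pass the filter. The sucrase-isomaltase gene SI was at 0.0560 ± 0.0300 FPKM under YM155 and 0.0711 ± 0.0380 FPKM under DMSO, and the intestinal alkaline phosphatase gene ALPI stayed under 0.1 FPKM. ENPEP, encoding aminopeptidase A, was at 0.149 ± 0.0610 FPKM under YM155 and 0.855 ± 0.156 FPKM under DMSO, with no overlap, and was under the filter. With no filter 2 genes of this list were called lower. Among M1 aminopeptidases, the family of ANPEP, 7 of 11 listed genes were tested, of which 3 rose (RNPEPL1, NPEPPS and LNPEP), 2 fell (RNPEP and ERAP2) and 2 were not called. With upper-quartile or common sum scaling 4 of them were lower. RNPEPL1 had the largest change, at 61.5 ± 2.57 FPKM under YM155 and 23.2 ± 0.575 FPKM under DMSO.

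CA2 encodes the cytosolic carbonic anhydrase II, which makes bicarbonate and protons for ion exchange across the surface epithelium. It was at 5.98, 6.06 and 7.66 FPKM in the YM155 libraries, against 1.93, 2.196 and 2.15 FPKM in the DMSO libraries. The groups did not overlap, and it rose 3.14-fold (log2 fold change 1.29, SE 0.10, adjusted p = 1.61e-06 by limma). Of 6 tested carbonic anhydrase genes 3 rose and 3 fell. CA12, of the plasma membrane, rose to 44.4 ± 0.515 FPKM under YM155, against 18.5 ± 0.379 FPKM under DMSO, and CA13, cytosolic like CA2, rose 2.04-fold. CA9, the hypoxia-induced gene, fell to 45.2 ± 7.81 FPKM under YM155, against 57.4 ± 3.22 FPKM under DMSO, while CA11 was 3.58-fold and CA8 7.04-fold lower. CA8 passed the filter only through the DMSO group and so had to differ. CA1 and CA4, the other carbonic anhydrases typical of mature colonocytes, were at 0 in all 6 libraries.

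FABP1 encodes the liver-type fatty acid binding protein, which ferries absorbed fatty acids through the enterocyte. It was at 0.181, 0.155 and 0.178 FPKM in the YM155 libraries, against 0.406, 0.607 and 0.113 FPKM in the DMSO libraries. It was not tested, and the groups overlapped, DMSO replicate 3 being the lowest of all. In steps these values were 1, 1 and 1 in the YM155 libraries and 4, 6 and 1 in the DMSO libraries, so the YM155 values are each a single step and no difference was detectable. The members of its family that were tested were FABP5, the epidermal form, which fell to 58.3 ± 1.46 FPKM under YM155, against 128 ± 3.01 FPKM under DMSO, the bile acid binding FABP6, which fell to 1.11 ± 0.849 FPKM, against 3.47 ± 0.984 FPKM, and the retinoic acid binding CRABP2, which rose 1.54-fold.

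**Figure D3:**
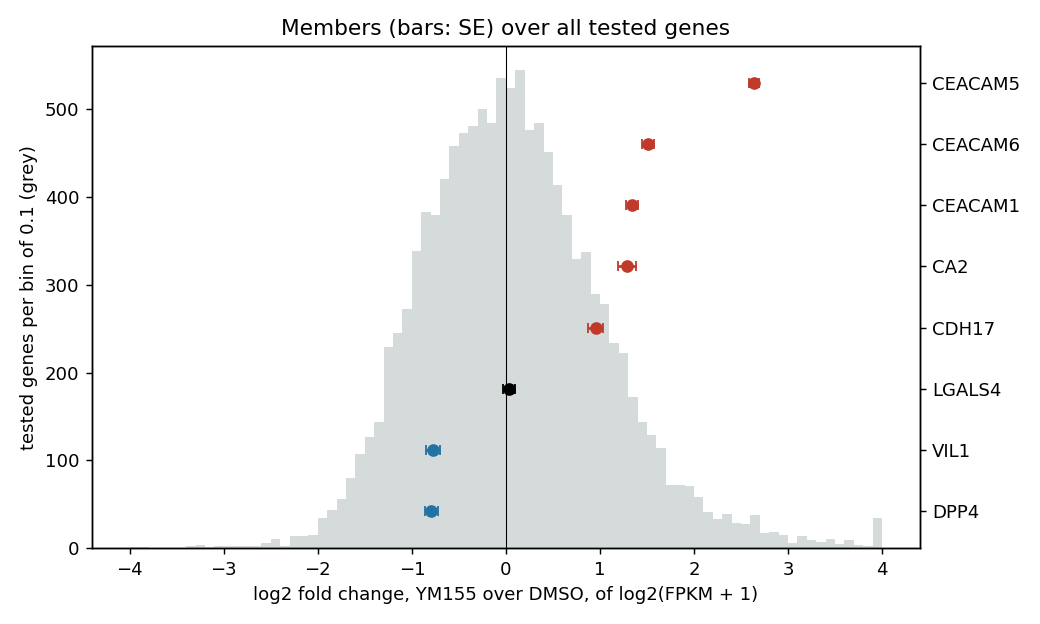
Log2 fold change of the 8 tested members (points, bars are SE; red rose, blue fell, black not called) over the histogram of all 12035 tested genes (grey, bins of 0.1; the outermost bins also hold values beyond them). CEACAM5 lies in the right tail at 2.64, VIL1 and DPP4 together at -0.77 and -0.79, and LGALS4 at 0.03.

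The order of the members differed between the groups. Under YM155 the order by mean was LGALS4, CEACAM6, CEACAM1, CEACAM5, VIL1, DPP4, CA2, CDH17, FABP1 and ANPEP, with overlapping ranges between CEACAM1 and CEACAM5 and between VIL1 and DPP4. Under DMSO the order was LGALS4, DPP4, VIL1, CEACAM6, CEACAM1, CEACAM5, CA2, CDH17, FABP1 and ANPEP, where only the ranges of DPP4 and VIL1 overlapped. DPP4 and VIL1 thus stood above the 3 CEACAM genes under DMSO and below them under YM155. Relative to all tested genes, CEACAM5 stood above 90.3% of them under YM155 and 56.4% under DMSO, and VIL1 above 68.1% under YM155 and 85.0% under DMSO. Among the 7 members over 1 FPKM in every library, the coefficient of variation was 5.79% to 14.4% under YM155 and 1.34% to 6.83% under DMSO.

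Of 19 tested genes of mature colonocytes 8 rose, 10 fell and 1 was not called (median log2 fold change -0.34). Among the 8, CEACAM7, PADI2 and B3GNT7 reached 1 FPKM in the YM155 libraries only, so their entry into the test already required a rise. The rises of TSPAN1 and PRAP1 lost their call with upper-quartile and common sum scaling, and TSPAN1 changed sign with quantile normalization (-0.11). With a mean of at least 5 FPKM required, 3 genes of this list were higher and 8 lower. KRT20, the keratin of surface colonocytes, rose to 805 ± 51.9 FPKM under YM155, against 120.1 ± 1.36 FPKM under DMSO, and the protein kinase A inhibitor gene PKIB rose 13.9-fold. The tetraspanin gene TSPAN8 fell to 219.7 ± 5.90 FPKM under YM155, against 554 ± 8.26 FPKM under DMSO. HSD11B2 was not called (6.99 ± 0.269 FPKM under YM155 and 6.48 ± 0.778 FPKM under DMSO). Named after its values were seen, the selenium-binding protein gene SELENBP1 was 5.02-fold lower. The colonocyte genes MS4A12, TMIGD1 and LYPD8 were at 0 in every library, and the anion exchanger gene SLC26A3 was at most 0.0136 FPKM.

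Of 13 tested solute transporter genes of enterocytes 3 rose, 9 fell and 1 was not called (median log2 fold change -0.83), and 5 were lower with a mean of at least 5 FPKM required. Among the 9, SLC3A1, SLC26A2 and SLC4A4 reached 1 FPKM in the DMSO libraries only. Their entry into the test already required a fall, and their values also enter that median. The chloride channel gene CFTR fell to 2.23 ± 0.529 FPKM under YM155, against 14.6 ± 0.307 FPKM under DMSO, and ATP1B1, the beta subunit of the sodium pump, was 2.74-fold lower. The sodium-proton exchanger gene SLC9A2 was at 11.3 ± 1.03 FPKM under YM155 and 0.329 ± 0.0345 FPKM under DMSO, and passed the filter only through the YM155 group. The rise of SLC5A1, the sodium-glucose cotransporter gene, lost its call with upper-quartile and common sum scaling. The lactate carrier gene SLC16A1 was not called (43.1 ± 2.32 FPKM under YM155 and 40.6 ± 2.67 FPKM under DMSO) and turned lower with upper-quartile, common sum and quantile scaling. Of 9 tested lipid uptake genes 4 rose and 4 fell. Among the rises, PLIN2 reached 1 FPKM in the YM155 libraries only, which fixed its direction. That of ACSL5 changed sign with upper-quartile (-0.02) and quantile (-0.11) scaling and lost its call with common sum scaling. MOGAT3, a monoacylglycerol acyltransferase gene, rose 3.998-fold and the fatty acid transporter gene SLC27A4 2.48-fold, while the apolipoprotein genes APOA4 and APOB were at 0 in every library.

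**Figure D4:**
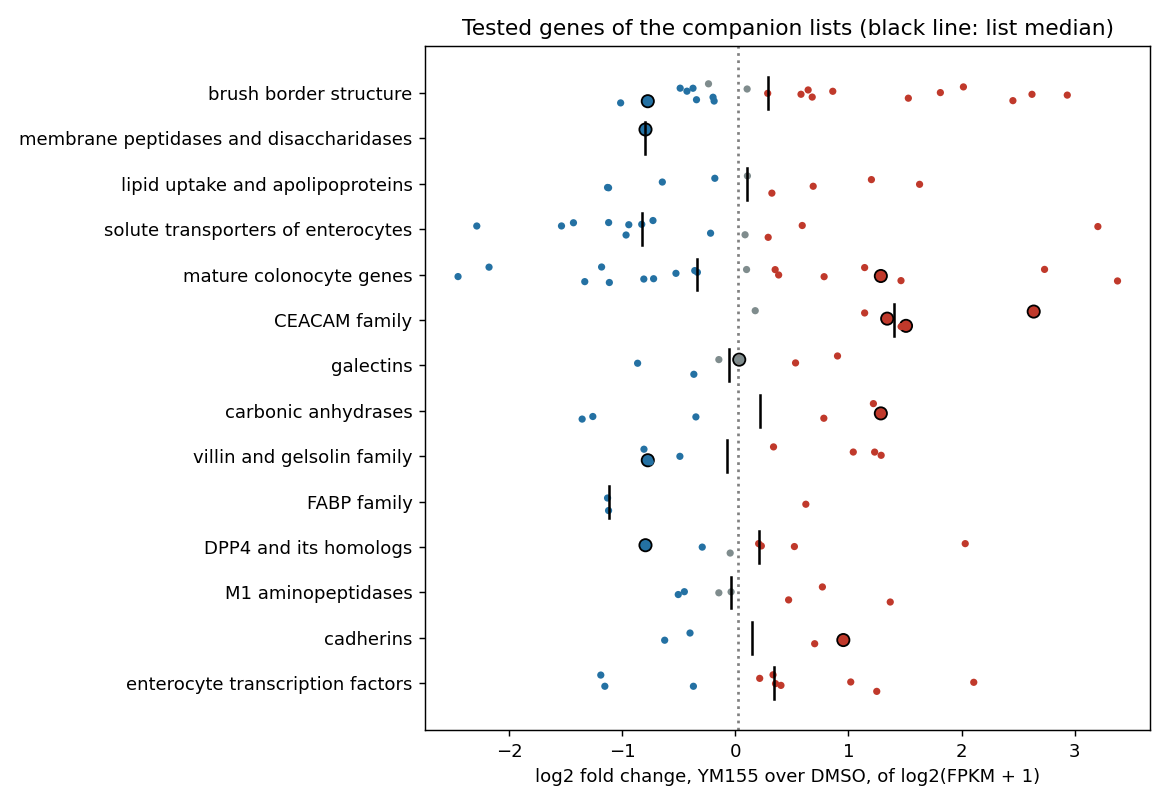
Log2 fold change of each tested gene of the 14 companion lists (red rose, blue fell, grey not called; large outlined points are members; black line, list median; dotted line, median of all tested genes at 0.02). Genes lie on both sides of 0 in 12 of the lists, all but the single tested peptidase gene and the CEACAM family, whose 6 tested genes all lie above 0 as deposited (CEACAM19 turns below 0 with upper-quartile and common sum scaling).

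Enterocyte transcription factors were also divided, with 7 of 10 tested genes higher and 3 lower. ELF3, an epithelial ETS factor, rose to 334 ± 19.5 FPKM under YM155, against 76.7 ± 1.01 FPKM under DMSO, GATA6 rose 2.51-fold and PPARG, a nuclear receptor of colonocyte differentiation, 2.06-fold. Among those that fell, named after their values were seen, were the intestinal homeobox gene CDX2 (0.839 ± 0.144 FPKM under YM155 and 3.20 ± 0.456 FPKM under DMSO) and the nuclear receptor gene HNF4A (1.31-fold lower). CDX2 reached 1 FPKM under DMSO only, which fixed the direction of its change, also where it is counted below as a marker. With upper-quartile and common sum scaling 3 were higher, and the rises of HNF4G, VDR and PPARA were among those lost or reversed. Over the 106 tested genes of all 14 lists that are not members, 50 rose and 46 fell, with a median log2 fold change of 0.10. Both counts include genes that passed the filter only through the group where they are high.

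The label of the cells was checked with 12 epithelial markers, of which 10 reached 1 FPKM in every library, 9 rose and 2 fell; CDX1 stayed under 1 FPKM and CDX2 fell. Their summed level was 8490 to 9211 FPKM in the YM155 libraries and 4625 to 4842 FPKM in the DMSO libraries, and the part of this in the member values was not tested. The rise of EPCAM, 1 of the 9, lost its call or reversed with upper-quartile, common sum and quantile scaling. All 7 fibroblast and all 5 endothelial markers were under 1 FPKM in every library, with sums of at most 0.358 and 0.250 FPKM. The leukocyte markers PTPRC and CD3E were at most 0.0279 FPKM, and FCGR3B, CSF3R and MS4A1 were at 0, while LYZ (1921 to 2056 FPKM under YM155 and 1809 to 2075 FPKM under DMSO) and CD68 (78.9 to 87.8 FPKM under YM155 and 3.81 to 5.56 FPKM under DMSO) were expressed. FPKM summed to 678699 to 696067 per YM155 library and 538478 to 563296 per DMSO library. One step of low FPKM values was worth 1.52 to 1.78 times as much in the YM155 libraries as in DMSO replicate 1, and 0.997 to 1.11 times in the other DMSO libraries. In bulk RNA, a smaller share of cells with a transcript and less of it per cell cannot be told apart.

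**Figure D5:**
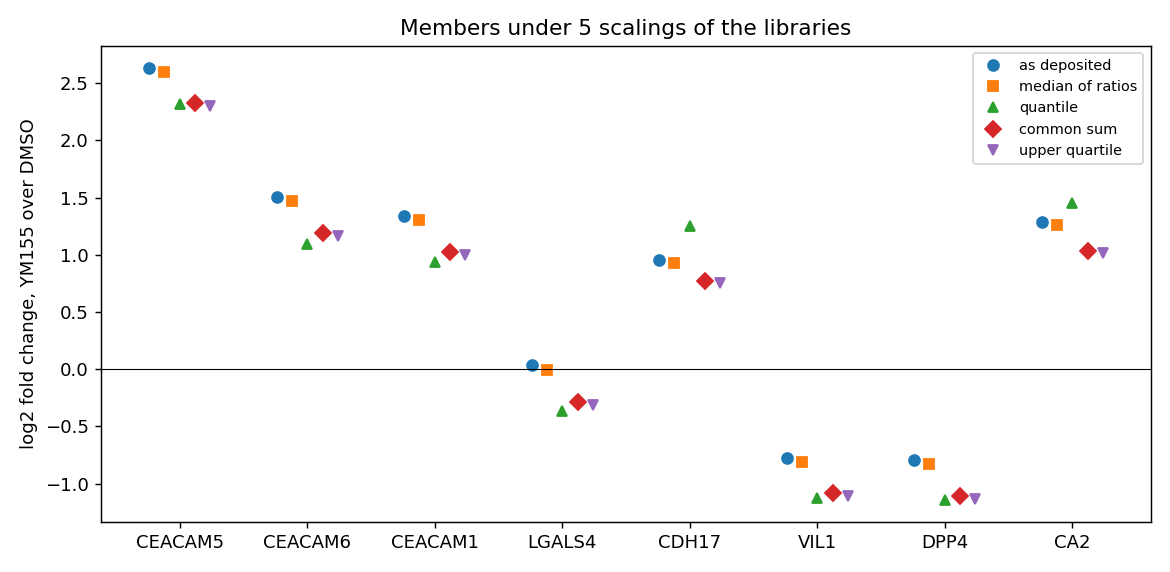
Log2 fold change of the 8 tested members as deposited and under 4 other scalings of the libraries. The 7 called members keep their direction in each, CEACAM5 between 2.303 and 2.64, while LGALS4 lies at 0.03 as deposited and between -0.37 and 0.00 under the others.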

How the data were processed

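A spin-column kit yielded the RNA and a stranded kit the mRNA libraries, per the labels' protocols. The authors deposited 1 FPKM value per gene symbol and library, per the file headers, which spell the compound YM115. Cuffdiff, Cufflinks 2.2.1, SAMtools 1.2, Bowtie2 2.3.5.1, TopHat2 2.1.1 and build hg19 are named in the submitters' processing notes. Settings, annotation, read totals, use of strand and between-library scaling were not given in the sources used here, so overlapping and antisense genes are uncertain.

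Genes with at least 1 FPKM in at least 3 of 6 libraries were tested as log2(FPKM + 1) with limma 3.58.1 in R 4.3.3 (lmFit, eBayes with trend, two-sided, no replicate block), adjusted by Benjamini-Hochberg over all 12035 tested genes. This scale understates the change of scarce transcripts, and folds are ratios of mean FPKM. The fit was tested on simulated data. Members and lists were chosen with earlier results of these data known. From each list the text names up to 3 called genes with the lowest p and the most abundant gene not called, and any gene of a list with at most 8 tested genes; others were chosen after their values were seen. Steps of low values were compared in 1337 genes with values above 0 and under 0.5 FPKM in all libraries; with per-gene units set from the DMSO libraries (405 genes), 77.8% to 78.3% of YM155 values lay within 0.02 of a whole step. The rest did not. The deposited values are FPKM and not counts, so no count model was used. Scaling, pseudocount, filter, eBayes, block, threshold and leave-one-out alternatives were run. Some genes of the lists are counted but not reported here by name.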

Additional observations from a re-analysis of the deposited data

How the results depend on the processing

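The 7 called members kept their direction and their call under every alternative run on them. The log2 fold change ranged from 2.303 to 2.72 for CEACAM5, from 1.09 to 1.58 for CEACAM6, from 0.94 to 1.41 for CEACAM1, from -1.13 to -0.69 for VIL1 and from -1.14 to -0.74 for DPP4. LGALS4 changed sign with median-of-ratios (-0.00237), upper-quartile (-0.31), common sum (-0.29) and quantile (-0.37) scaling and without YM155 replicate 1 (-0.0343); relative to the median of all genes the common sum value was -0.03. Its leave-one-out range was -0.0343 to 0.0798. With a mean of at least 5 FPKM required, 8575 genes were tested. Of the members 3 were higher, against 5, since neither CA2 nor CDH17 was tested. Of all genes 4419 were higher, against 5251, and 2922 lower, against 4940, so the lower calls shrank more. The log2 ratio of CEACAM5 to CEACAM6 differed by 1.19 with a pseudocount of 0.1, against 1.13 with 1. Leaving out 1 library gave 5084 to 5252 genes higher and 4768 to 4952 lower, and always 5 members higher and 2 lower. Of 504 recomputed list counts, 481 stayed within 1.5 times. Upper-quartile scaling put 36.4% of calls higher, common sum 37.4% and the filter on the mean 60.2%, against 51.5%. The replicate numbers did not pair the libraries (correlations of deviations -0.07, -0.15 and -0.12); a replicate block gave 10008 calls against 10191 and left the member calls as they were. ANPEP and FABP1 rest on few steps of low values and were under the filter of the main fit. With no filter 5 members were called higher and 2 lower, the same as with it, so neither gene was called.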

Other observations

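CEACAM7, CEACAM5 and CEACAM6 are neighbours on chromosome 19 in that order, by RefSeq gene order, and all 3 rose. The next tested gene after CEACAM6, the ribosomal protein gene RPS19, lies beyond 6 other genes and was at 2166 FPKM under YM155 and 2091 FPKM under DMSO (not called). BCKDHA, the next tested gene before CEACAM7, has 17 genes between it and CEACAM5. It fell to 42.0 FPKM under YM155, against 54.1 FPKM under DMSO. CEACAM1 stands apart on the same chromosome. Its nearest tested neighbours on one side, CXCL17 (0.910 FPKM under YM155 and 1.24 FPKM under DMSO) and LIPE (2.42 FPKM under YM155 and 2.66 FPKM under DMSO), were not called. LYPD3, the nearest tested gene on the other side, lies beyond 34 other genes. It rose to 1.45 FPKM under YM155, against 0.539 FPKM under DMSO, having passed the filter only through the YM155 group. The gene next to LGALS4, ECH1, of fatty acid oxidation, fell to 99.3 FPKM under YM155, against 188 FPKM under DMSO. CAPN12, on the other side of LGALS4 and beyond 4 other genes, rose to 48.9 FPKM under YM155, against 22.7 FPKM under DMSO. Of the 4 nearest tested neighbours of VIL1, USP37 fell to 3.61 FPKM under YM155, against 5.25 FPKM under DMSO, and CTDSP1 fell to 33.7 FPKM under YM155, against 51.7 FPKM under DMSO. TMBIM1 rose 6.05-fold and ZNF142 1.79-fold.

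Among 8547 tested non-member genes with a mean of at least 5 FPKM, the ones nearest to CEACAM5 by root mean square difference of centred log2(FPKM + 1) over the 6 libraries were MTRNR2L9 (0.0272), ZNF185 (0.0455) and ACVR1 (0.0499), and 49 genes lay within 0.1. Nearest to LGALS4 were PES1 (0.0151), CEP250 (0.0179) and TPRN (0.0234), with 690 genes within 0.1. Reads of MTRNR2L9 can be shared with the mitochondrial ribosomal RNA gene it resembles.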
